A study of Mus musculus with 2 samples.

Results

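Krüppel-like factor (KLF) genes were examined in the immortalized mouse erythroid line G1E-ER4. The 10 genes were taken by symbol: Klf1, Klf2, Klf3, Klf5, Klf6, Klf9, Klf10, Klf11, Klf13 and Klf16. All 10 were found among the 43346 Ensembl genes of the deposited tables, and undetected ones were kept. The data were paired-end RNA-seq of polyadenylated RNA from 2 libraries of 1 group. The line comes from G1E cells, male in origin, which lack Gata1, and carries GATA1 fused to a hormone-binding domain of an estrogen receptor. Both libraries are labelled as cells with Gata1 restored and with differentiation started by estradiol. The sources used here give no concentration or duration of estradiol, and the group has no untreated counterpart in these data. The libraries are labelled biological replicates 1 and 2 but cite a single biosample record, so the spread between them may be technical. No condition could be compared and no test was made; the values below describe these cells and the match between the libraries.

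KLF proteins bind CACCC boxes and related GC-rich elements through zinc fingers at the carboxyl end, and differ in the partners recruited by the rest of the protein. KLF1 is the erythroid activator of the adult beta-globin gene and of many red cell genes. KLF3 binds similar sites, is itself driven by KLF1, and represses through the corepressor CtBP. KLF9, KLF10, KLF11, KLF13 and KLF16 form a subgroup that recruits the SIN3 corepressor. KLF2 acts in endothelial cells, lymphocytes and embryonic red cells, and KLF5 and KLF6 are activators of wider use.

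The promoters of Klf1, Klf2 and Klf3 are shown first, because Klf1 and Klf3 were the most abundant genes of the set and Klf2, which lies on the same chromosome as Klf1, was near 0. The windows hold the bases before both the RefSeq and the GENCODE start, on the plus strand of build GRCm38.p6, taken from a RefSeq promoter table that held 7 of the 10 genes. They span chr8:84901732-84901927 for Klf1 (196 bases), chr8:72318812-72319032 for Klf2 (221 bases) and chr5:64803271-64803387 for Klf3 (117 bases). Motifs were searched as letters on both strands. The GATA motif was read with A or T before those letters and A or G after them. The CACCC motif, the CCAAT motif and a GC box spelled GGGCGG were read as written, and the MEF2 motif was also searched. Capitals mark GATA, CACCC and CCAAT in the Klf1 window, MEF2 and GC box in the Klf2 window, and CACCC, read on the minus strand, in the Klf3 window.
Klf1: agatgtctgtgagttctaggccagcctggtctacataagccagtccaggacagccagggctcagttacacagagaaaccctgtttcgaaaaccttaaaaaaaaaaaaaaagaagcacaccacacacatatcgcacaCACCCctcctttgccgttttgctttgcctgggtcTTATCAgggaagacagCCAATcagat
Klf2: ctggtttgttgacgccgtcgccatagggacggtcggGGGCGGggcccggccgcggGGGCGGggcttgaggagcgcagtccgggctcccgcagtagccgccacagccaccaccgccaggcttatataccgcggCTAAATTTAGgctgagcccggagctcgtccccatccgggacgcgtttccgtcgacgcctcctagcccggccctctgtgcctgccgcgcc
Klf3: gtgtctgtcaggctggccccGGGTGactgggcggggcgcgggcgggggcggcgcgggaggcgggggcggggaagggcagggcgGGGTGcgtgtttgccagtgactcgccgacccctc
The Klf1 window held 1 GATA match, on the minus strand, with 20 bases between it and the GENCODE start. It also held 1 CACCC match at 55 bases and 1 CCAAT match at 5 bases. Of all 32851 promoters in the table, 22.8% held the GATA motif in a window of that length, 43.7% CACCC and 27.8% CCAAT. The Klf2 window held no GATA, CACCC or CCAAT match in these letters. It held 1 MEF2 match at 79 bases before the start, found in 2.61% of promoters over that length, and 2 GC boxes, found in 28.7%. The Klf3 window held 2 CACCC matches, at 92 and 29 bases, and 5 GC boxes, the last of which shares 1 letter with a CACCC match. In a window of that length 28.4% of promoters held CACCC and 12.4% a GC box. A match is a description of letters and shows no binding.

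Klf1 was the most abundant KLF gene. Its level was 479.17 TPM (a length-corrected share of all transcripts in the library) in replicate 1 and 376.11 TPM in replicate 2, or 427.6 ± 72.87 TPM (SD, n = 2). Replicate 2 was the lower library, and both values lay far above those of every other member. In a culture sequenced in bulk, fewer cells that express a gene and less RNA per cell cannot be told apart. Klf1 stood above 96.63% of detected protein-coding genes in replicate 1 and above 95.75% in replicate 2, where detected means 1 TPM or more in both libraries. It made up 55.3% and 49.44% of the summed TPM of the 17 KLF genes measured. That is more than all other KLF genes together in replicate 1, but not in replicate 2.

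Klf3, the CtBP-dependent repressor, came second. Its level was 148.96 TPM in replicate 1 and 158.17 TPM in replicate 2. Klf1 was 3.22 times higher than Klf3 in replicate 1 and 2.38 times higher in replicate 2, so their ranges did not overlap. Klf16, of the SIN3-recruiting subgroup, stood at 126.1 and 108.96 TPM, just below Klf3 in both libraries.

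Further members of that subgroup followed in a wide range. Klf13, whose loss delays red cell maturation in mice, had 57.47 and 67.31 TPM. Klf9, a glucocorticoid- and thyroid hormone-inducible gene, had 35.37 and 30.12 TPM. Klf11, described as a globin gene activator in cultured cells, had 7.37 and 7.16 TPM. The order Klf16, Klf13, Klf9, Klf11 was the same in both libraries in TPM, and no range overlapped the next, which changed for Klf13 and Klf9 on the scale of the longest transcript model described below. Klf10, the fifth of the subgroup and known as a gene induced early by transforming growth factor beta, had 2.49 and 5.48 TPM. In TPM it was the lowest of the detected members in both libraries, whereas on the longest-model scale Klf11 was lower than Klf10 in replicate 2.

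Klf6, an activator needed for blood formation in the yolk sac, stood at 9.5 and 7.34 TPM. It lay above Klf11 within each library, by 1.29 and 1.03 times, but the ranges of the pair over the libraries overlapped. Klf6 and Klf11 were the only neighbours in the order whose ranges overlapped on the TPM scale. The median of the 10 genes was 20.58 TPM, beside 0.025 TPM over all protein-coding genes and 20.47 TPM over the detected ones.

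Klf2 and Klf5 were near the limit of these libraries. Klf2 had 7 and 9 estimated counts, or 0.07 and 0.12 TPM, and Klf10, the next gene above it, was 35.6 and 45.7 times higher. Klf5 had 0 counts in replicate 1, which allows up to 3 counts or 0.0319 TPM, and 1 count in replicate 2. In all, 8 of the 10 genes reached 1 TPM in both libraries, where 39.0% of the 21474 protein-coding genes did. Counting limits here cover counting error only.

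**Figure D1:**
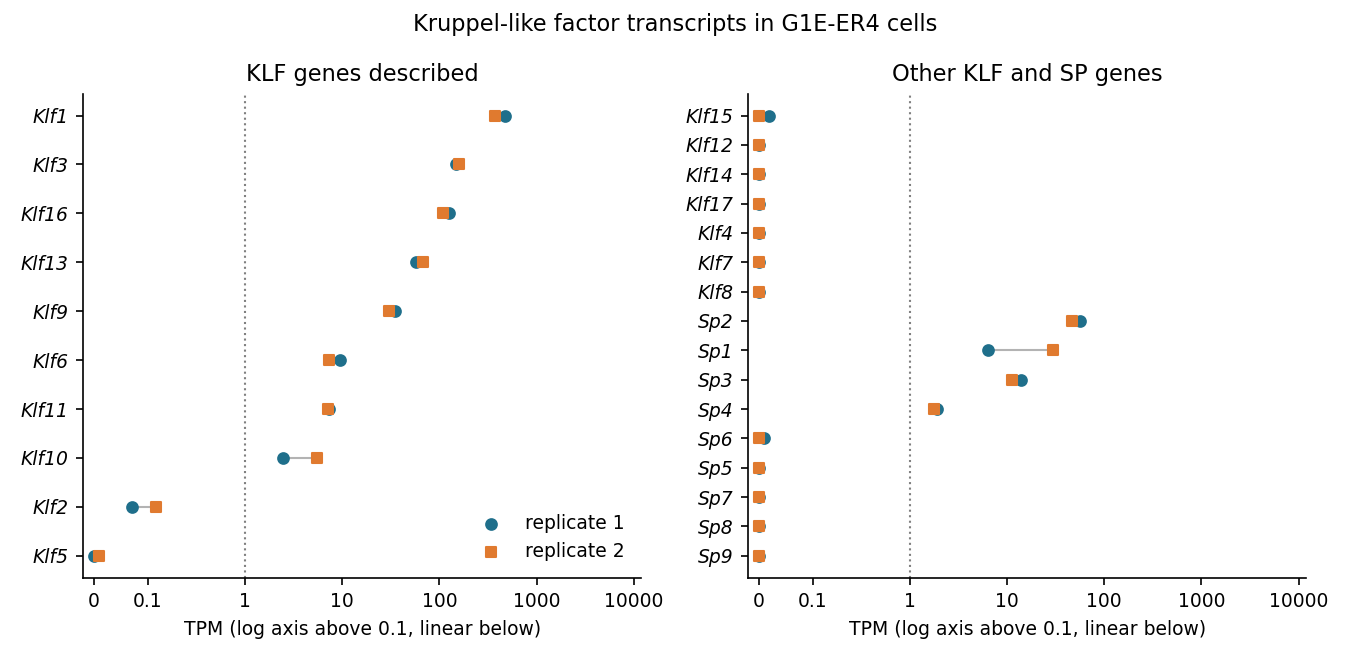
Levels in TPM (horizontal axis, logarithmic above 0.1 and linear below) of the 10 KLF genes (left) and of the other KLF and SP genes (right), with a circle for replicate 1, a square for replicate 2 and a dotted line at 1 TPM. The left panel descends from Klf1 at 479.17 and 376.11 TPM to Klf5 near 0, and on the right no other KLF gene and 4 SP genes pass 1 TPM.

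The rest of the family was nearly silent. None of the other 7 KLF genes (Klf4, Klf7, Klf8, Klf12, Klf14, Klf15 and Klf17) reached 1 TPM, and 5 of them had 0 counts in both libraries. Of all 21474 protein-coding genes, 8895 had 0 counts in both. The SP factors, which share the zinc fingers and bind GC boxes, had 4 of 9 genes at 1 TPM in both libraries. The share of all protein-coding genes that did so is 39.0%. Sp2 stood at 56.09 and 46.81 TPM, Sp3 at 14.05 and 11.15 TPM and Sp4 at 1.91 and 1.76 TPM. Sp1 had 6.31 and 29.47 TPM from nearly equal estimated counts, 1708 and 1735, because a 515-base transcript model took 22.58 TPM in replicate 2 and 0 in replicate 1. The remaining SP genes, Sp5 to Sp9, had at most 2 counts in a library.

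Only Klf3, Klf11 and Klf13 had more than 1 transcript model in the files, and the 2 leading models of each start at different places. The share of each model in the TPM of its gene moved between the libraries most for Klf3. Its model with the downstream start (ENSMUST00000166409, 1562 bases, start at chr5 position 64812339) held 50.75% in replicate 1 and 64.38% in replicate 2. Its model with the upstream start (ENSMUST00000165536, 2314 bases, start at 64803388) held 49.25% and 35.62%. The starts lie 8951 bases apart and both models share the start codon at 64816774. The Klf3 gene is known to have a ubiquitous promoter and a further, downstream promoter used in erythroid cells. The sequence shown above is that of the upstream start, and a window for the downstream start was not used here.

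In TPM the downstream model equalled the upstream model in replicate 1, with a ratio of 1.03, and exceeded it in replicate 2, with 1.81. In estimated counts, which favour the longer model, the ratios were 0.671 and 1.18. Both scales therefore moved the same way between the libraries, while which model led in replicate 1 depended on the scale. The estimated counts of the downstream model were 6388.47 and 6480.73, and those of the upstream model 9523.53 and 5491.27. The models also differ at their ends, and the upstream one is 5221 bases long in the later GENCODE M21 annotation. The part of those differences in the shares was not tested. A gene on the opposite strand, Gm20033, overlaps the upstream start and had 10.25 and 8.58 TPM. The sources used here do not state whether the counting used strand, so reads of the overlap cannot be told apart.

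For Klf11 and Klf13 a short model held most of the TPM and few of the reads. The 667-base model of Klf11 held 67.13% and 72.04% of its TPM but 21.39% and 25.92% of its estimated counts. The 487-base model of Klf13 held 51.98% and 55.89% of its TPM but 5.442% and 6.441% of its estimated counts. Nearly all Klf13 counts, 94.47% and 93.56%, were placed on the 6400-base model.

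These short models raise the gene level, since the same read is worth more TPM on a short model. With all counts of a gene divided by the effective length of its longest model, a calculation added after the data were seen, Klf13 had 28.86 and 31.74 TPM and Klf11 had 3.081 and 2.701 TPM. Klf3 then had 122.6 and 122.8 TPM. On that scale the ranges of Klf3 and Klf16 overlapped, as did those of Klf13 and Klf9, and those of Klf11 and Klf10. Klf1 led on both scales. The genes Klf1, Klf6, Klf9, Klf10 and Klf16 have 1 model each and kept their levels.

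**Figure D2:**
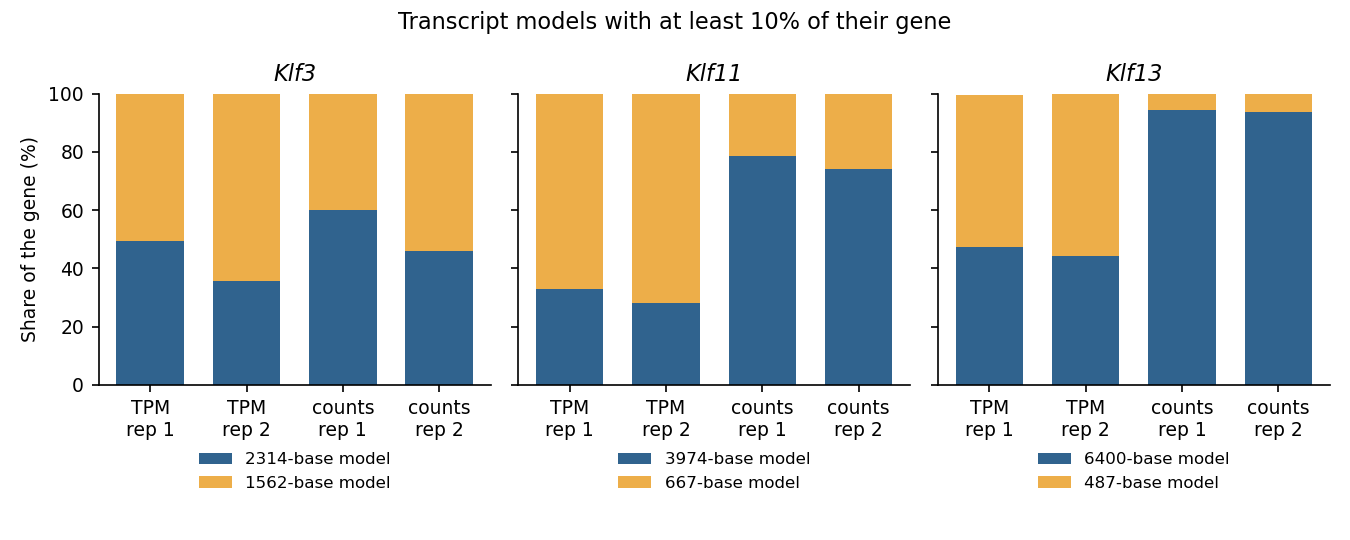
Share of each gene (vertical axis, percent) held by its transcript models with at least 10% of the gene, by TPM and by estimated counts in replicates 1 and 2. The short models of Klf11 and Klf13 hold over 50% of the TPM and under 30% of the counts, and the 1562-base model of Klf3 holds more in replicate 2 on both scales.

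Between the libraries, counts were set on a common scale by the trimmed mean of M-values (TMM) and given as replicate 2 over replicate 1, with 95% exact (Clopper-Pearson) intervals. Of the 10 genes, 8 had a mean of at least 10 counts. Klf10 was the exception among them. It had 433 counts in replicate 1 and 714 in the shallower replicate 2, a ratio of 2.36 (2.09 to 2.66). This is a log2 ratio of 1.24, farther from 0 than that of 93.6% of the genes examined. Over all 10863 genes compared, 9.73% were over 2-fold apart in either direction and 7.73% were over 2-fold higher in replicate 2. Among the 8376 detected protein-coding genes, 528 were over 2-fold apart in either direction. The count of 1 in 8 is a single gene beside these backgrounds, and a single library on each side gives no replicate check.

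The other 7 ratios lay within 1 SD of 0, the SD of the log2 ratio over all genes being 0.675. Klf1 had a ratio of 0.844 (0.831 to 0.858), Klf6 0.827 (0.773 to 0.885) and Klf13 1.18 (1.14 to 1.21). Klf3 had 1.07, Klf16 0.926, Klf9 0.912 and Klf11 0.938. The interval of Klf11 (0.833 to 1.06) included 1. In all, 5 of the 8 genes were lower and 3 higher in replicate 2. Scaled by library totals, the log2 ratio of Klf3 turned from 0.10 to -0.0023, leaving Klf13 and Klf10 as the higher genes. Klf2, with a ratio of 1.84, had an interval from 0.609 to 5.8, so no difference was detectable at its 7 and 9 counts.

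**Figure D3:**
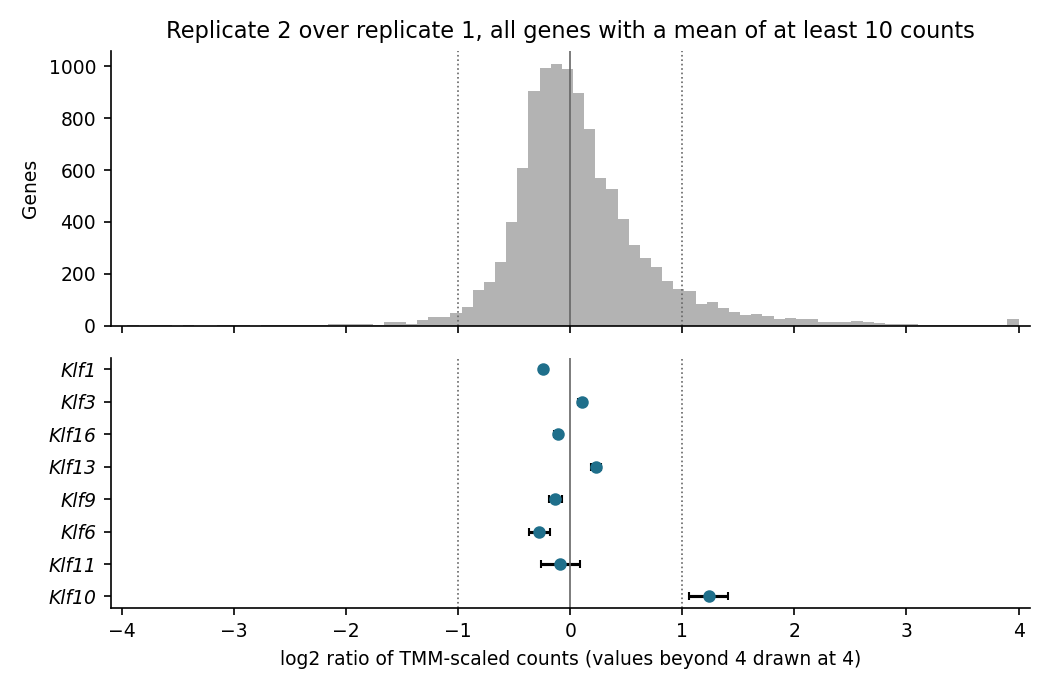
Log2 ratio of TMM-scaled counts, replicate 2 over replicate 1 (horizontal axis), as a histogram of all genes that average 10 counts or more (top) and as points with 95% counting intervals for 8 KLF genes (bottom), with dotted lines at 2-fold. Klf10 lies beyond the line at 1.24, and the other 7 genes lie between -0.274 for Klf6 and 0.233 for Klf13.

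The factors known to act upstream of Klf1 were all abundant, 6 of 6 at 1 TPM with a median of 707.4 TPM. Of all protein-coding genes, 39.0% reached 1 TPM in both libraries. Gata1 stood at 1497.76 and 2429.83 TPM. The parent G1E cells lack Gata1, and this line carries the added GATA1 fusion. Reads of the fusion and of any RNA from the cell's own locus cannot be told apart in these tables. The scaled counts of Gata1 were 1.74 times higher in replicate 2, the library with the lower Klf1, and a relation between them was not tested. Zfpm1, encoding the cofactor FOG1, had 713.33 and 666.19 TPM. The partners of the TAL1 complex, Ldb1, Lmo2 and Tal1, had 799.79 and 650.36, 787.82 and 586.49, and 212.86 and 266.1 TPM in replicates 1 and 2. Gata2, a gene that GATA1 is known to silence as red cells mature, had 1028.83 and 896.44 TPM, above Klf1 in both libraries.

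Of 29 matched genes known as KLF1 targets, 25 reached 1 TPM in both libraries, where 39.0% of all protein-coding genes did. The median of the list was 46.79 TPM. The highest was the adult beta-globin gene Hbb-bs, at 7940.22 and 7235.18 TPM, or 16.6 and 19.2 times Klf1. Alad, a haem synthesis enzyme, followed with 481.83 and 566.73 TPM, at 1.01 and 1.51 times Klf1. Klf3 came next, and by the mean of the libraries the iron reductase gene Steap3 followed with 125.48 and 118.55 TPM. The rank of Steap3 was not the same within each library, where Zbtb7a (130.38 TPM in replicate 1) or Ank1 (124.0 TPM in replicate 2) stood above it.

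Some red cell genes of the list lay near or below the threshold of 1 TPM. Others lay far above it, such as Ank1 with 110.93 and 124.0 TPM and Ermap with 87.97 and 109.71 TPM. Alas2, the erythroid enzyme that starts haem synthesis, had 1.44 and 2.0 TPM, with Klf1 333.0 and 188.0 times above it. Kel of the Kell blood group had 1.31 and 1.03 TPM, and the membrane skeleton gene Dmtn had 1.21 and 1.28 TPM. Epb42, encoding protein 4.2, missed the threshold with 0.74 and 0.70 TPM. Bcam of the Lutheran blood group, the water channel gene Aqp1 and Klf8 had 0 counts in both libraries. In scaled counts 4 of the 25 detected targets were over 2-fold higher in replicate 2, beside 7.73% of all genes compared, which include less abundant ones. Among the 8376 detected protein-coding genes, 528 were over 2-fold apart in either direction. The 4 targets were Hbb-bt with a ratio of 2.48, Alas2 with 2.27, Icam4 with 2.12 and Ermap with 2.08. In TPM the ratios were 2.27 for Hbb-bt, 1.39 for Alas2, 1.96 for Icam4 and 1.25 for Ermap, so that only Hbb-bt of these passed 2-fold on both scales. Hbb-bt, Icam4 and Ermap are named here after their values were seen, and Hbb-bt and Hbb-bs are near-identical copies whose reads the counting may have split.

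**Figure D4:**
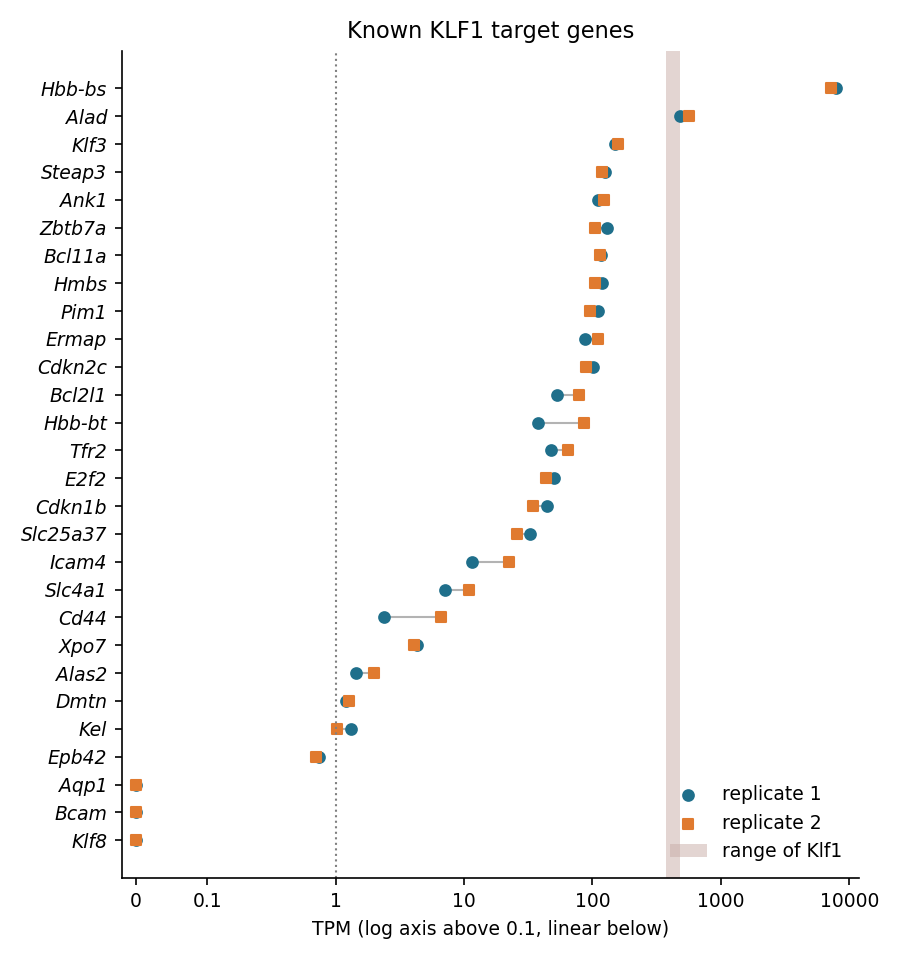
Levels in TPM (horizontal axis, logarithmic above 0.1 and linear below) of 28 of the 29 genes known as KLF1 targets, with a circle for replicate 1, a square for replicate 2, a dotted line at 1 TPM and a shaded band for the range of Klf1. Hbb-bs lies above the band and Alad just beyond its upper edge in both libraries, and Aqp1, Bcam and Klf8 lie at 0.

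The label of the cells was checked against markers. All 10 erythroid markers reached 1 TPM in both libraries, where 39.0% of all protein-coding genes did, but Alas2 did so only narrowly, as given above. Active GATA1 is known to silence Gata2 and to raise Alas2. Taken alone, the high Gata2 and low Alas2 levels given above go against the label of induced differentiation, but their levels before estradiol are not known here. Klf1, which has GATA1 among its upstream factors, was abundant, as given above. The globin genes of the marker list were high: Hba-a1 had 6746.36 and 8936.07 TPM, and Hbb-bs is given above. Without an untreated group the stage of induction could not be compared, and it was not tested. Of the megakaryocyte markers 2 of 6 passed, Itga2b with 18.16 and 29.33 TPM and Gp1ba with 30.99 and 34.88 TPM, and of the myeloid markers 1 of 6, Cd68 with 1.22 and 1.16 TPM. Their summed levels were 50.54 and 66.47 TPM for the megakaryocyte list and 1.28 and 1.44 TPM for the myeloid list. No mast cell, lymphoid or endothelial marker of 5, 5 and 4 passed. Among the myeloid, lymphoid and endothelial markers at 0 in both libraries were Lyz2, Itgam, Pecam1, Cdh5 and Cd3e. Other markers below 1 TPM had some counts, such as the mast cell marker Cpa3 with 38 and 22, Mpo with 2 and 19 and Kdr with 3 and 9.

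Partners of the repressor KLFs were present together with them. The CtBP genes used by KLF3 were both detected, Ctbp1 at 327.75 and 255.83 TPM and Ctbp2 at 65.53 and 57.42 TPM. Klf1 was 1.46 and 1.47 times Ctbp1. All 5 SIN3 complex genes passed, as did 39.0% of all protein-coding genes, with a median of 46.31 TPM for the 5. Hdac1 had 68.66 and 58.03 TPM, Sin3b 55.56 and 55.42 TPM, Sap30 53.55 and 39.08 TPM and Hdac2 48.12 and 35.2 TPM. Sin3a, at 7.75 and 8.67 TPM, was the lowest of them and lay below its paralog Sin3b in both libraries. The 3 genes known as KLF3 targets for repression ranged widely. Klf8 had 0 counts and Lgals3 0.69 and 0.31 TPM, while C1qtnf12 had 109.5 and 79.48 TPM.

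The coactivators that acetylate KLF1 or act with it were detected as well, 4 of 4, beside 39.0% of all protein-coding genes. Smarca4, the remodelling ATPase BRG1, had 286.59 and 261.36 TPM. Ep300 had 38.26 and 36.25 TPM, above its paralog Crebbp at 4.51 and 8.12 TPM and above Kat2b at 3.38 and 2.13 TPM. Of the ubiquitin ligases known to act on KLF2 and KLF5, Fbxw7 had 4.86 and 4.94 TPM and Wwp1 0.96 and 0.67 TPM.

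The kinases and MEF2 factors known to induce Klf2 were mostly present, while Klf2 itself was near 0. Of 5 genes 4 passed, beside 39.0% of all protein-coding genes, and the median of the 5 was 28.5 TPM. Mef2d had 170.24 and 166.67 TPM, the kinase genes Map2k5 and Mapk7 46.19 and 36.75, and 27.9 and 29.11 TPM, and Mef2a 9.13 and 7.18 TPM. Mef2c had 0.34 and 0.50 TPM. None of 6 genes known to be driven by KLF2 passed, though most protein-coding genes did not pass either. The embryonic globin genes Hbb-y and Hbb-bh1 and the thrombomodulin gene Thbd had 0 counts in both libraries, and Nos3 and S1pr1 stood at 0.16 TPM or less.

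Genes of the pathways known to induce Klf10 and Klf9 were also measured. For Klf10, 4 of 8 genes of transforming growth factor beta signalling passed, near the 39.0% of all protein-coding genes, with a median of 1.308 TPM. The ligand gene Tgfb1 had 2022.32 and 1663.4 TPM, whereas the receptor gene Tgfbr2 had 0 counts in both libraries and Tgfbr1 had 1.72 and 1.31 TPM. Of the signal carriers, Smad4 had 28.33 and 24.92 TPM, Smad2 5.01 and 3.77 TPM and Smad3 0.05 TPM or less. The induced genes Smad7 and Skil had 0.02 and 0.05, and 0.61 and 1.59 TPM. For Klf9, all 4 genes of the glucocorticoid response passed, beside 39.0% of all protein-coding genes. Their median was 28.11 TPM, beside 20.47 TPM over the detected protein-coding genes. The receptor gene Nr3c1 had 33.56 and 28.0 TPM, and the induced genes Tsc22d3, Per1 and Fkbp5 had 30.17 and 30.46, 25.22 and 26.6, and 19.4 and 21.12 TPM.

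The members also differ in position and sequence. In mm10 with the GENCODE M21 annotation, Klf1 lies at chr8:84901928-84905291 and Klf2 at chr8:72319033-72321656, both on the plus strand. Klf3 lies at chr5:64803388-64832901, Klf5 at chr14:99298691-99315036, Klf6 at chr13:5861482-5870394, Klf9 at chr19:23141226-23168134 and Klf11 at chr12:24651274-24662789, all on the plus strand. Klf10 at chr15:38291463-38300706, Klf13 at chr7:63886351-63938915 and Klf16 at chr10:80567124-80577321 are on the minus strand. The transcripts of Klf1, Klf2 and Klf16 are rich in G and C (61.0%, 61.6% and 60.4%), in the highest of 10 equal classes of genes by this measure, and that of Klf6 is the poorest of the 10 with 42.4%. Klf1 and Klf2 have nearly the same composition and differ widely in level. Among protein-coding genes averaging 10 counts or more, the median of the highest class was 34.7 and 32.3 TPM. That of the class of Klf6 was 6.34 and 6.07 TPM. Any part of composition in the levels was not tested. Stretches of 31 bases shared with other genes made up at most 1.91% of a member's transcripts (Klf5), and Klf1, Klf2, Klf6, Klf9 and Klf16 shared none.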

How the data were processed

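Polyadenylated RNA of G1E-ER4 cells was measured in 2 libraries of 1 group, with 68901065 estimated counts in replicate 1 and 51923117 in replicate 2. The authors' deposited tables give, per the file headers, an expected (estimated) count, TPM and FPKM per gene and transcript, and the percent of a gene's TPM per transcript. The files use mm10 and GENCODE M4, per the readme files deposited with them. Neither aligner nor quantifier was named in the sources used here. Gene identifiers without version were matched to symbols, for 42462 of 43346 Ensembl genes. Of 128 listed symbols 1 had no match. Positions and later models came from GENCODE M21 (GRCm38).

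Levels are means and SDs of TPM. A gene was detected at 1 TPM or more in both libraries. Counts were rounded and scaled by TMM (edgeR 4.0.16, R 4.3.3), with exact intervals from scipy 1.17.1, and genes averaging 10 counts or more were compared. This scaling was checked on simulated counts with as many genes raised as lowered. In these libraries most genes over 2-fold apart were higher in replicate 2, a setting that the check does not cover. The libraries held different values. Alternatives were FPKM, posterior mean TPM, other thresholds, library totals, DESeq2 1.42.0 size factors and leaving out a library. Named were all 10 members, every member of lists of at most 10 genes, and of longer lists the 4 highest, the 4 lowest detected and every undetected gene. Of these, 2 genes are counted in their lists but not reported here. The members and lists were chosen with earlier results of these data known.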

Additional observations from a re-analysis of the deposited data

How the results depend on the processing

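No paired analysis was possible because the 2 libraries form 1 group and no groups are compared. The number of KLF genes at 1 TPM was 8 under 7 of the 8 alternatives and 7 at a minimum of 5 TPM, and ranged from 8 to 8 without either library. The number over 2-fold apart was 1 under all 6 alternatives. The share of Klf1 in the summed KLF TPM, 52.37% as a mean, became 57.12% with the longest transcript model, a setting chosen after the data were seen. The median of the KLF1 targets, 46.79 TPM, was 40.73 in FPKM, 46.17 in posterior mean TPM and between 43.62 and 44.11 TPM without a library. The median of the genes upstream of Klf2 was 24.8 in FPKM, which has another scale. In posterior mean TPM, the medians of the other KLF genes and of the SP genes were 0.03 and 0.045, since that estimate stays above 0. Of the 8 log2 ratios between libraries, library totals moved 6 beyond their counting interval, ratios of TPM and of posterior mean TPM moved 4 each, and DESeq2 size factors moved 0. Klf3 changed direction with library totals, to -0.0023. Depth limits Klf2 and Klf5, which rest on at most 9 counts in a library.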
